A study of Homo sapiens with 6 samples.

Results

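Copying a genome in S phase takes a set of proteins that act in a fixed order. The origin recognition complex, CDC6 and CDT1 load rings of MCM2 to MCM7 onto origins in G1, which is called licensing. Cyclin E with its kinase CDK2, and the E2F transcription factors, drive entry into S phase, when CDC45 and the GINS complex join the MCM ring to form the active helicase. DNA polymerases, their clamp PCNA and the clamp loader RFC then copy the strands, while ribonucleotide reductase and thymidylate synthase supply deoxynucleotides. Many of these genes are transcribed by E2F in proliferating cells, and they are commonly high in carcinomas of squamous epithelium.

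The 37 genes of G1/S control and DNA replication described here were picked by symbol, with symbols taken from RefSeq through the Entrez ID. All 37 of them had an ID among the 40448 genes of the series, and all 37 were above 0 in each of the 6 libraries. KYSE150 is an established line from a human oesophageal squamous cell carcinoma. The 3 NCCRP1 clones (1, 6 and 17) were stably transfected with a vector for human NCCRP1, and the 3 mock clones (1, 4 and 5) with the pIRES2-EGFP vector. Each clone is a single library of total RNA without ribosomal RNA, read on the Ion Torrent platform, so a difference between the groups also holds whatever sets single clones apart. NCCRP1 clone 1 and mock clones 1 and 4 were read in run 15, and NCCRP1 clones 6 and 17 and mock clone 5 in run 14, as the deposited files are named. No label gives the promoter of the NCCRP1 vector.

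Values are log2 RPKM, reads per kilobase of gene scaled to library depth, as the authors deposited them, and a 0 stands for a gene under 1 RPKM or without an estimate. NCCRP1 itself had log2 values of 6.19, 8.07 and 6.71 in NCCRP1 clones 1, 6 and 17, and it was listed at 0 in all 3 mock clones. Depth, read from the whole-read steps of low microRNA values, came to 14570000 to 18070000 reads in NCCRP1 clones and 12290000 to 15960000 in mock clones. At that depth the lowest value of the 37 genes, CCNE2 at 0.99 in NCCRP1 clone 1, stands for about 36 reads per kilobase. All 10 squamous markers, among them KRT5 and TP63, were above 0, with a summed level of 1350 to 2600 RPKM in NCCRP1 clones and 1890 to 2270 RPKM in mock clones. Of the fibroblast markers 5 of 6 were listed at 0 in all libraries (COL1A1 was not), as were 3 of 4 endothelial markers (CDH5 was not) and 5 of 6 immune markers (CSF1R was not). Their summed levels in NCCRP1 clones were 2.49 to 5.62, 0 to 1.58 and 3.98 to 4.18 RPKM, and in mock clones 3.5 to 5.96, 0 and 4.34 to 5.38 RPKM. The clones were labelled separately, and every p below rests on the spread over these 6 libraries alone.

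For most of the replication genes NCCRP1 clones 1 and 17 stood below the mock clones, while NCCRP1 clone 6 was below them for some genes and above them for others. None of the 37 genes rose or fell by limma's test over 12737 genes, where 0.102% of genes passed (0.0314% lower and 0.0707% higher), and the adjusted p of the 37 ran from 0.294 to 0.999. At an unadjusted p under 0.05, 5 of the 37 were lower in NCCRP1 clones (GINS3, ORC6, CHAF1A, MCM4 and MCM3), against 3.79% of all genes, and none was higher, against 3.54%. The mean was lower in NCCRP1 clones for 31 of the 37 and higher for 6, against 53.3% and 46.7% of all genes tested. The median log2 difference of the 37 was -0.155, and that of all genes tested was -0.016. Single clones weighed on these values. Without NCCRP1 clones 1, 6 and 17 in turn, the 5 genes at an unadjusted p under 0.05 by limma became 3, 10 and 1. Over all genes, 934 of 12737 passed this p in either direction with every clone kept. The same fits without an NCCRP1 clone gave 1030 of 12627, 719 of 12645 and 924 of 12582 genes. Without mock clones 1, 4 and 5 in turn, 2, 4 and 8 of the 37 passed this p. Over all genes these fits gave 662 of 12625, 761 of 12566 and 1345 of 12606. The median difference was -0.102 without NCCRP1 clone 1 and -0.297 without NCCRP1 clone 6.

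**Figure D1:**
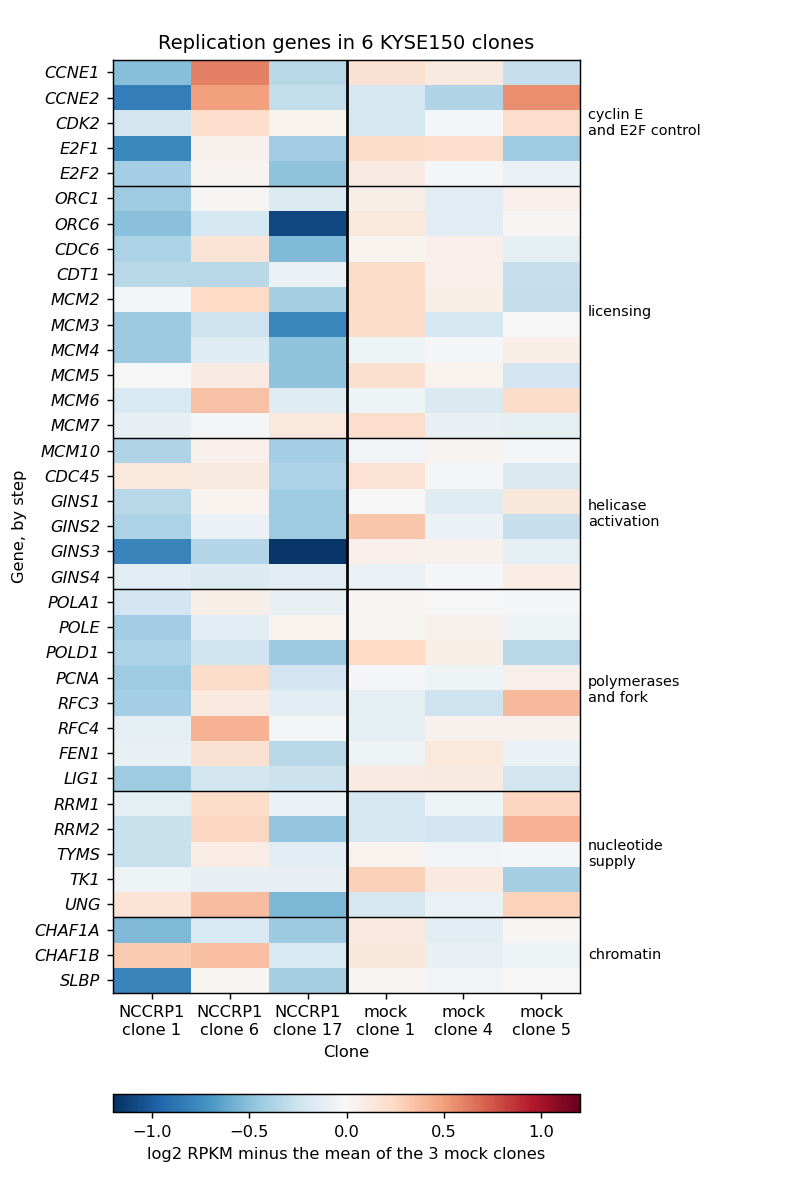
Log2 RPKM minus the mean of the 3 mock clones for each of the 37 genes (rows, by step) in each clone (columns). Blue is below and red above the mock mean. The columns of NCCRP1 clones 1 and 17 are mostly blue, with GINS3 and ORC6 darkest in clone 17, and that of NCCRP1 clone 6 is mixed.

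Clone by clone, 29 of the 37 genes in NCCRP1 clone 1 lay below all 3 mock clones and 1 lay above them, against 29.1% and 20.9% of all genes tested. In NCCRP1 clone 17, 26 of the 37 lay below the mock clones and 0 above, against 23.6% and 26.1% of all genes. In NCCRP1 clone 6, 9 lay below and 12 above, against 25.9% and 22.2%. The lowest of the 6 libraries was NCCRP1 clone 17 for 17 of the 37 genes, NCCRP1 clone 1 for 16 and NCCRP1 clone 6 for 1, against 14.5%, 20.7% and 16.5% of all genes. Mock clones 1, 4 and 5 were the lowest for 1, 0 and 2 of them, against 20.9%, 8.61% and 18.8%. The highest library was NCCRP1 clone 6 for 12 of the 37 and NCCRP1 clones 1 and 17 for 0 each, against 13.6%, 13.2% and 17.5% of all genes. Mock clones 1, 4 and 5 were the highest for 15, 2 and 8 of them, against 15.5%, 10.9% and 29.2%. Relative to the mock mean, NCCRP1 clones 1, 6 and 17 averaged -0.31, 0.065 and -0.331 over the 37 genes, and mock clones 1, 4 and 5 averaged 0.049, -0.03 and -0.019. Single genes departed from this average: CDT1 stood at -0.34, -0.33 and -0.08 in NCCRP1 clones 1, 6 and 17, and POLE at -0.42, -0.14 and 0.04.

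Without any overlap between the groups stood 7 of the 37 genes, all lower in the NCCRP1 clones, against 7.05% of all genes tested; none was higher without overlap, against 5.71%. These 7 were GINS3, ORC6, MCM3, MCM4, CHAF1A, LIG1 and GINS4. They come from licensing, helicase activation, strand joining and chromatin assembly. For each of them the exact permutation test over the 6 clones returned p = 0.1 (two-sided), and 3 clones against 3 cannot go lower. Groups of this size without overlap always give this p, so the test adds nothing to the pick.

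**Figure D2:**
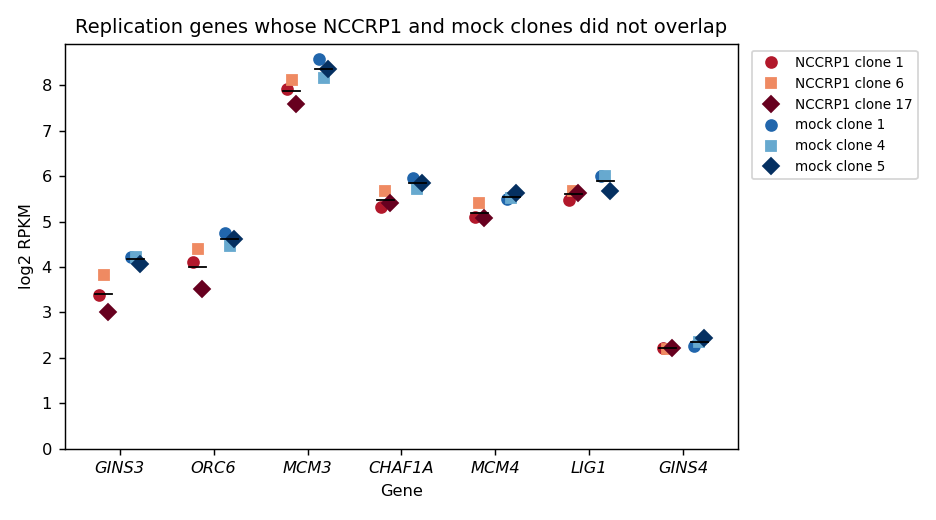
Log2 RPKM of the 7 genes whose groups did not overlap, by clone (symbols, NCCRP1 clones left and mock clones right for each gene), with the group mean as a line. GINS3 has the widest gap between the groups, 0.23, and LIG1 the narrowest, 0.01.

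Promoter sequences are shown for the 5 of these 7 genes that are GINS3, ORC6, MCM3, CHAF1A and LIG1, because E2F sites near the start are the feature that replication genes are best known to share. They are the 250 bases before to 50 after the start, from RefSeq on GRCh38.p14, which differs from the hg19 build that the submitters' processing notes name. GINS3 lies at chr16:58392221-58392520 and ORC6 at chr16:46689409-46689708, both on the plus strand of chromosome 16. MCM3 lies at chr6:52284693-52284992 on the minus strand, CHAF1A at chr19:4402390-4402689 on the plus strand and LIG1 at chr19:48170295-48170594 on the minus strand. Each is written 5′ to 3′ on the gene's strand, with matches to an E2F motif in capitals.
GINS3: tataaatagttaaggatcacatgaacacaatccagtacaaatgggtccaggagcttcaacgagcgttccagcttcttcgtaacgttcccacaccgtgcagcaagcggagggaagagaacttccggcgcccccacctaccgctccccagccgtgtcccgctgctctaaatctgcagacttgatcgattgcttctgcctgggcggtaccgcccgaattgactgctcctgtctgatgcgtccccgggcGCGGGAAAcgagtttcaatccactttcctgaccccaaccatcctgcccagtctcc
ORC6: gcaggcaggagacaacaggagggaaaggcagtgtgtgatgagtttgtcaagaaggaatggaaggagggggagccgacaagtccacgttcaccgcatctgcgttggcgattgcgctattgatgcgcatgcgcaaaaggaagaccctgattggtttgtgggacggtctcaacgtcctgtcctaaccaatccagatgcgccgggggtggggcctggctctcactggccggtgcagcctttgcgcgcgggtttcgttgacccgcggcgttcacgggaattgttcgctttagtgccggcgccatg
MCM3: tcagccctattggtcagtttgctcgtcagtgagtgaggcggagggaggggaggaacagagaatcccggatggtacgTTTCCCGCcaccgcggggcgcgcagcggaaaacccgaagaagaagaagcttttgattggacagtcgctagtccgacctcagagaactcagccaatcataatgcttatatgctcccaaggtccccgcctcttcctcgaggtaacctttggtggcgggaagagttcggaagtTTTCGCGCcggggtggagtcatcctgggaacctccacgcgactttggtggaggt
CHAF1A: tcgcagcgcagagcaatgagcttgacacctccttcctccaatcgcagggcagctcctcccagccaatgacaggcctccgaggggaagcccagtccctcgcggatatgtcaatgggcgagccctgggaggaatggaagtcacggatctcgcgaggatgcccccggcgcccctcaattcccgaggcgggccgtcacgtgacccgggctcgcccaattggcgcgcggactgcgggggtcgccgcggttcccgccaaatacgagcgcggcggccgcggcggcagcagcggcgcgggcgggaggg
LIG1: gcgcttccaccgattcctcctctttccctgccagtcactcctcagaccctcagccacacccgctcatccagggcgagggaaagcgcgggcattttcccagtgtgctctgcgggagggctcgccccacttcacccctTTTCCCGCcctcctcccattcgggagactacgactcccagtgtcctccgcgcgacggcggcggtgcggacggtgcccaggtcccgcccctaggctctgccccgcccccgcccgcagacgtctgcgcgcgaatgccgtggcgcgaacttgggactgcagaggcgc
The motif searched was TTTCCCGC, TTTGGCGC, TTTCGCGC or TTTGCCGC on either strand, so that a match on the other strand reads, for example, GCGGGAAA. GINS3 and LIG1 hold 1 match each and MCM3 holds 2, while ORC6 and CHAF1A hold no such letters in this window.

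Of the 37 genes 32 had a promoter window in the table, and 17 of these 32 (53.1%) held the E2F motif, against 3.33% of 27303 windows of the same length over all genes and 5.57% of 9702 windows of genes tested here. The share was 6 of 8 licensing genes and 5 of 8 polymerase and fork genes. Among 15 windows of genes of G2 and mitosis, the phases after S, 2 (13.3%) held the motif, whereas 13 of the 15 (86.7%) held CCAAT on either strand, the box bound by NF-Y. CCAAT was in 18 of the 32 replication windows (56.2%) and in 35.7% of all windows. The 17 genes with an E2F match averaged -0.37, 0.00 and -0.33 relative to the mock mean in NCCRP1 clones 1, 6 and 17. The 15 without a match averaged -0.24, 0.13 and -0.36, so clone 6 was the highest of the NCCRP1 clones for genes with and without these letters. The median log2 difference between groups was -0.24 with a match and -0.09 without. Below the mock mean in clone 1 were 17 of 17 with a match and 12 of 15 without, and in clone 17, 15 of 17 and 15 of 15. The difference between these sets was not tested.

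In the control of entry into S phase, E2F1, the activator that drives many replication genes, was at 5.03, 5.85 and 5.38 in NCCRP1 clones 1, 6 and 17 and at 6.02, 6.01 and 5.37 in mock clones 1, 4 and 5. NCCRP1 clone 1 was the lowest, but mock clone 5 was as low as NCCRP1 clone 17, and the groups overlapped. Its log2 difference of -0.38 (SE 0.23, limma adjusted p = 0.81) was -0.98 within run 15 and 0.24 within run 14. E2F2, another activator, was at 3.36, 3.80 and 3.29 in NCCRP1 clones 1, 6 and 17 and at 3.87, 3.76 and 3.69 in the mock clones, so that clone 6 alone reached the mock level (difference -0.29, SE 0.17, limma adjusted p = 0.79). The cyclin E genes, whose products activate CDK2, varied most between NCCRP1 clones. CCNE1 was at 1.18, 2.29 and 1.36 in NCCRP1 clones 1, 6 and 17 and at 1.87, 1.80 and 1.41 in mock clones 1, 4 and 5. CCNE2 was at 0.99, 2.31 and 1.52 in the NCCRP1 clones and at 1.62, 1.46 and 2.38 in the mock clones. For both, NCCRP1 clone 1 was the lowest library of all and clone 6 was well above the other NCCRP1 clones. The kinase gene CDK2 itself had group means of 4.68 ± 0.22 in NCCRP1 and 4.67 ± 0.21 in mock clones (SD, n = 3 each).

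Among licensing genes, ORC6, a subunit of the origin recognition complex, was at 4.11, 4.40 and 3.52 in NCCRP1 clones 1, 6 and 17 and at 4.74, 4.47 and 4.62 in mock clones 1, 4 and 5. Every NCCRP1 clone was below every mock clone, clone 17 by far the most and clone 6 only by 0.07. The NCCRP1 level was 0.661 times the mock level (log2 difference -0.60, SE 0.21, limma adjusted p = 0.498). ORC1, the largest subunit of that complex, had means of 2.88 ± 0.22 in NCCRP1 and 3.07 ± 0.11 in mock clones (SD, n = 3 each). The loader CDC6 was at 4.05, 4.59 and 3.90 in NCCRP1 clones 1, 6 and 17 and at 4.31 to 4.49 in mock clones, with clone 6 the highest of all libraries. For its partner CDT1, mock clone 1 was the highest library, with both NCCRP1 clones 1 and 6 at 4.22, clone 17 at 4.48 and mock clones 1, 4 and 5 at 4.77, 4.61 and 4.27.

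The MCM2 to MCM7 genes encode the 6 subunits of the ring that is loaded at origins. MCM3 was at 7.93, 8.12 and 7.59 in NCCRP1 clones 1, 6 and 17 and at 8.59, 8.16 and 8.37 in mock clones 1, 4 and 5. The groups did not overlap, but NCCRP1 clone 6 and mock clone 4 were only 0.04 apart. The NCCRP1 level was 0.711 times the mock level (log2 difference -0.49, SE 0.20, limma adjusted p = 0.6). MCM4 was at 5.11, 5.40 and 5.07 in NCCRP1 clones 1, 6 and 17 and at 5.49, 5.53 and 5.63 in mock clones 1, 4 and 5, again with clone 6 nearest to the mock range. Its NCCRP1 level was 0.78 times the mock level (log2 difference -0.36, SE 0.14, limma adjusted p = 0.59), and it was -0.40 within each run. The other ring subunits had smaller differences in mean, from -0.13 for MCM5 and -0.06 for MCM2 to 0.00 for MCM6 and MCM7. In NCCRP1 clone 17, MCM2, MCM5 and MCM7 stood at -0.40, -0.48 and 0.13 relative to the mock mean. MCM7 was the single licensing gene above the mock mean in clone 17.

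Per gene length, the ring subunits stood at very different levels. Over the 6 libraries MCM3 averaged 279 RPKM and MCM6 13.3 RPKM (geometric means), a ratio of 21, with MCM7 at 210 RPKM, MCM2 at 107 RPKM, MCM4 at 41.4 RPKM and MCM5 at 30.4 RPKM. This order, MCM3, MCM7, MCM2, MCM4, MCM5 and MCM6, rests on means, and the ranges of MCM3 and MCM7, of MCM4 and MCM5 and of no other neighbours in it overlapped between libraries. The GINS genes spanned a ratio of 10.1, from GINS4 at 4.86 RPKM to GINS2 at 49.2 RPKM. For ribonucleotide reductase, the catalytic subunit gene RRM1 averaged 35.1 RPKM and RRM2 6.54 RPKM. The gene lengths behind the deposited RPKM (not given in the sources used here) enter these levels.

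**Figure D3:**
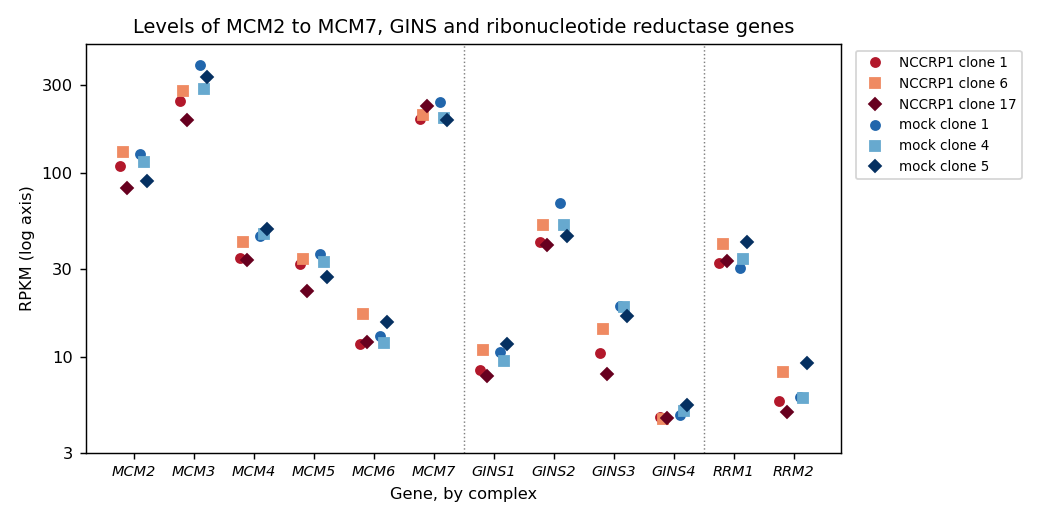
RPKM on a log axis of the MCM2 to MCM7, GINS and ribonucleotide reductase genes in each clone (symbols, NCCRP1 clones left and mock clones right for each gene). Levels of most subunits of a complex differ more than those of 1 gene between clones, and GINS3 shows the widest gap between the groups.

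In helicase activation all 6 genes had their lower mean among NCCRP1 clones, and the median of their log2 differences was -0.236, which was -0.38 without NCCRP1 clone 6 and -0.147 without NCCRP1 clone 17. GINS3, a subunit of the GINS complex that links CDC45 to the MCM ring, had the lowest p of the 37 genes. It was at 3.38, 3.82 and 3.0 in NCCRP1 clones 1, 6 and 17 and at 4.23, 4.22 and 4.06 in mock clones 1, 4 and 5. Each NCCRP1 clone was below every mock clone, clone 17 most, and the gap between the groups was 0.23. The NCCRP1 level was 0.587 times the mock level (log2 difference -0.77, SE 0.20, limma adjusted p = 0.294), and the difference was -0.85 within run 15 and -0.64 within run 14. GINS2 was at 5.39, 5.70 and 5.34 in NCCRP1 clones 1, 6 and 17 and at 6.10, 5.70 and 5.49 in mock clones 1, 4 and 5, so that it overlapped (difference -0.29, SE 0.18, limma adjusted p = 0.818). GINS4 was at 2.22, 2.19 and 2.22 in NCCRP1 clones and at 2.27, 2.34 and 2.44 in mock clones, apart by 0.04, with a difference of only -0.14 (SE 0.17, limma adjusted p = 0.952). MCM10 stood at 3.88 and 3.83 in NCCRP1 clones 1 and 17 and at 4.30 in clone 6, against 4.21 to 4.27 in mock clones. CDC45 and GINS1 were both lowest in NCCRP1 clone 17, at 4.34 and 2.97.

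Of the polymerase and fork genes, POLD1, the catalytic subunit of polymerase delta, was at 6.03, 6.16 and 5.96 in NCCRP1 clones 1, 6 and 17 and at 6.64, 6.47 and 6.07 in mock clones 1, 4 and 5. Mock clone 5 lay among the NCCRP1 clones, and the difference of -0.35 (SE 0.17, limma adjusted p = 0.71) was -0.53 within run 15 and -0.01 within run 14. LIG1, the ligase that seals Okazaki fragments, was at 5.47, 5.68 and 5.64 in NCCRP1 clones 1, 6 and 17 and at 6.00, 6.01 and 5.68 in mock clones 1, 4 and 5. Mock clone 5 was again the lowest mock clone, with the groups 0.01 apart and a difference of -0.30 (SE 0.15, limma adjusted p = 0.714), which was -0.54 within run 15 and -0.02 within run 14. The clamp gene PCNA was at 5.57, 6.22 and 5.77 in NCCRP1 clones 1, 6 and 17 and at 5.95 to 6.06 in mock clones, so that NCCRP1 clones lay on both sides. RFC4, a clamp loader subunit, was the one gene of this step whose mean was higher in the NCCRP1 group (4.94 ± 0.28, against 4.85 ± 0.09 in mock clones; SD, n = 3 each), and clone 6 held its highest value, 5.27. For POLA1, POLE, FEN1 and RFC3 the log2 differences were -0.08, -0.17, -0.08 and -0.15. All 8 genes of this step were below the mock range in NCCRP1 clone 1, 2 were in clone 6 and 5 were in clone 17.

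Nucleotide supply had a median log2 difference of -0.088, which was 0.058 without mock clone 5, -0.002 without NCCRP1 clone 17, -0.188 without NCCRP1 clone 6 and -0.042 without mock clone 4. TYMS, thymidylate synthase, was at 5.88, 6.24 and 6.02 in NCCRP1 clones 1, 6 and 17 and at 6.19, 6.12 and 6.13 in mock clones 1, 4 and 5 (limma adjusted p = 0.961). Its locus overlaps ENOSF1 on the other strand, and the counting strand is not stated in the sources used here. RRM2, the subunit that limits ribonucleotide reductase in S phase, was at 2.52, 3.04 and 2.33 in NCCRP1 clones 1, 6 and 17 and at 2.58, 2.56 and 3.21 in mock clones 1, 4 and 5 (limma adjusted p = 0.965). The high values of RRM2 were 1 clone of each group, both read in run 14, but NCCRP1 clone 17, also read in run 14, was the lowest library. TK1, the thymidine salvage kinase, had the highest level of this step, at 6.75, 6.71 and 6.71 in NCCRP1 clones and 7.10, 6.93 and 6.41 in mock clones, so that the NCCRP1 clones lay within the mock range. RRM1 was at 5.14 ± 0.19 in NCCRP1 and 5.13 ± 0.24 in mock clones (SD, n = 3 each). UNG, which removes uracil from DNA, was at 4.47 and 4.68 in NCCRP1 clones 1 and 6 and at 3.77 in clone 17, against 4.11 to 4.59 in mock clones.

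In chromatin assembly behind the fork, CHAF1A, the large subunit of the histone chaperone CAF-1, was at 5.32, 5.67 and 5.41 in NCCRP1 clones 1, 6 and 17 and at 5.97, 5.72 and 5.86 in mock clones 1, 4 and 5. The groups were 0.05 apart, and the NCCRP1 level was 0.766 times the mock level (log2 difference -0.38, SE 0.15, limma adjusted p = 0.571). Its partner CHAF1B had the highest difference of the 37 genes, 0.16 (SE 0.17, limma adjusted p = 0.94), at 4.12, 4.17 and 3.63 in NCCRP1 clones and 3.95, 3.72 and 3.75 in mock clones. SLBP, which binds the stem-loop of histone mRNAs, was at 4.70, 5.52 and 5.10 in NCCRP1 clones 1, 6 and 17 and at 5.52, 5.47 and 5.50 in mock clones 1, 4 and 5 (difference -0.39, SE 0.19, limma adjusted p = 0.716). NCCRP1 clone 6 equalled the mock clones for SLBP, and clones 1 and 17 stood at -0.80 and -0.39 relative to their mean.

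Several of the lowest values belong to genes whose chromosomal neighbours were also low in the same clone. The neighbour shift is the median, over the 30 nearest expressed protein-coding genes in RefSeq order, of the deviation from each gene's mean, relative to the mock clones. In NCCRP1 clone 17, GINS3 and ORC6, both on chromosome 16, stood at -1.17 and -1.08 relative to the mock mean, with neighbour shifts of -0.63 and -0.47. GINS2, also on chromosome 16, stood at -0.43 with a neighbour shift of -0.21, and CDT1, on the same chromosome, at -0.08 with a shift of -0.07. The 4 genes on chromosome 16 averaged -0.69 in clone 17, and the 33 on other chromosomes averaged -0.29 there, with mean neighbour shifts of -0.34 and 0.01. GINS3 and ORC6 also had low neighbours in the other NCCRP1 clones. They stood at -0.79 and -0.5 in NCCRP1 clone 1, with neighbour shifts of -0.25 and -0.26. Their values in NCCRP1 clone 6 were -0.35 and -0.21, with neighbour shifts of -0.16 and -0.09. In NCCRP1 clone 1, SLBP on chromosome 4 stood at -0.80 with a neighbour shift of -0.61. In NCCRP1 clone 6, MCM7 on chromosome 7 had a neighbour shift of -0.34 and stood at -0.02 itself.

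**Figure D4:**
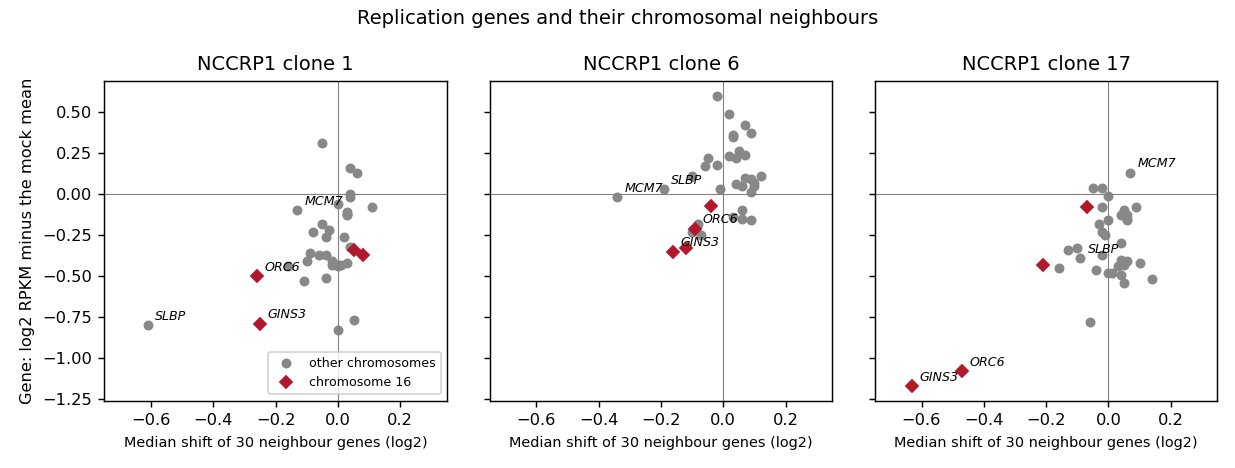
For each NCCRP1 clone, log2 RPKM of each of the 37 genes minus the mock mean (vertical) against the median shift of its 30 neighbours on the chromosome (horizontal), with the 4 genes on chromosome 16 in red. GINS3 and ORC6 in clone 17 and SLBP in clone 1 lie to the lower left, and most other genes of clones 1 and 17 lie below 0 with neighbours near 0.

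With the neighbour shift subtracted, the log2 difference between groups was -0.42 for GINS3 and -0.32 for ORC6, against -0.77 and -0.60 as deposited, and that of SLBP was -0.09, against -0.39. The median over the 37 genes was -0.177 with the shift subtracted and -0.155 as deposited. For MCM3, MCM4, LIG1 and CHAF1A the differences became -0.40, -0.38, -0.27 and -0.27. The part of the neighbour shifts in these differences was not tested further.

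GC content went with differences among the mock clones. Over the 37 genes, mock clone 5 minus the mean of mock clones 1 and 4 correlated with transcript GC content at r = -0.751, and at -0.619 over 11976 genes tested, and the points share the same 3 libraries. Against the mock mean, NCCRP1 clones 1, 6 and 17 gave r = 0.104, -0.394 and 0.0953 over the 37 genes. Mock clone 5 minus the other mock clones was 0.84 for CCNE2 and 0.64 for RRM2, and -0.64 for E2F1 and -0.60 for TK1. With the GC trend of each library removed, the median difference of the 37 genes was -0.161, GINS3 stood at -0.76 (limma adjusted p = 0.285) and E2F1 at -0.33, and none of the 37 passed. Within run 15 the median difference was -0.361 and 33 of the 37 were lower, against -0.016 and 6672 of 12737 over all genes tested. Within run 14 the median was -0.066 and 22 of the 37 were lower, against -0.041 and 7024 of 12737. The run 14 values were thus near those of all genes. In both runs 20 of the 37 were lower, against 29.4% of all genes tested. Run 15 holds 1 NCCRP1 clone and run 14 holds 1 mock clone, so within each run 1 group is a single clone and run and clone cannot be told apart.

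Another 66 genes of the same pathway, from a list that includes the other ORC, polymerase, RFC and RPA subunits, the remaining E2F genes and helper factors, held 0 genes that passed limma's test, with 4 lower and 2 higher at an unadjusted p under 0.05, against 3.79% and 3.54% of all genes. In NCCRP1 clones the mean was lower for 46 of these and higher for 20, and their median difference was -0.11. The groups did not overlap for 7 lower and 2 higher genes, against 7.05% and 5.71% of all genes tested, so these counts were near the background. The 6 with the lowest p were TFDP1, POLD4, UHRF1, E2F4, RRM2B and NASP. TFDP1, the DNA-binding partner of E2F proteins, was at 5.11 ± 0.25 in NCCRP1 and 5.66 ± 0.08 in mock clones (SD, n = 3 each; limma adjusted p = 0.352), and its neighbours on chromosome 13 had a shift of -0.39 (NCCRP1 minus mock). E2F4, mostly a repressor in resting cells, was at 7.08 ± 0.31 in NCCRP1 and 7.63 ± 0.09 in mock clones (limma adjusted p = 0.456), with a neighbour shift of -0.29. UHRF1, which maintains DNA methylation behind the fork, was at 4.61 ± 0.44 in NCCRP1 and 5.24 ± 0.15 in mock clones (limma adjusted p = 0.451), with a neighbour shift of -0.30. With the shift subtracted, the differences of TFDP1, E2F4 and UHRF1 were -0.16, -0.26 and -0.32, against -0.55, -0.55 and -0.63 as deposited. The histone chaperone gene NASP was at 4.48 ± 0.21 in NCCRP1 and 4.83 ± 0.14 in mock clones (limma adjusted p = 0.656). In the other direction, POLD4, the smallest subunit of polymerase delta, was at 5.49 ± 0.17 in NCCRP1 and 4.90 ± 0.31 in mock clones (limma adjusted p = 0.369). Its log2 difference of 0.60 was 0.96 within run 15 and 0.16 within run 14, and 0.45 with the neighbour shift subtracted. RRM2B, the p53-induced form of the small reductase subunit, was at 3.80 ± 0.16 in NCCRP1 and 3.41 ± 0.18 in mock clones (limma adjusted p = 0.63). The means of POLD4 and RRM2B were higher in NCCRP1 clones and those of POLD1 and RRM2 were lower, and none of these genes passed limma's test.

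Values of 20 genes of G2 and mitosis are given beside those of the replication genes. In NCCRP1 clone 17, 14 of the 20 mitotic genes lay above all 3 mock clones and 0 below, and 0 of the 37 replication genes lay above and 26 below, against 26.1% and 23.6% of all genes. The mean relative to the mock mean was 0.396 for the mitotic genes in clone 17, and -0.331 for the replication genes. PLK1, a mitotic kinase, was at 5.59, 5.36 and 6.31 in NCCRP1 clones 1, 6 and 17, against 5.50 to 5.83 in mock clones, and KIF20A, a mitotic kinesin, was at 3.70, 3.55 and 4.75 in the same NCCRP1 clones, against 3.61 to 4.10 in mock clones. In NCCRP1 clone 6 the order was the other way, with a mean of -0.185 for mitotic and 0.065 for replication genes. The medians there were -0.071 and 0.055. The mitotic genes MKI67, CDK1 and KIF11, all on chromosome 10, stood at -0.83, -0.61 and -0.68 in clone 6. Their neighbour shifts there were -0.55, -0.42 and -0.42, and that of CENPE, which stood at -0.55, was 0.08. The part of these shifts in the clone 6 mean was not tested. In clone 1 both lists were below the mock mean, at -0.154 and -0.31. Among mock clones, mock clone 5 was 0.266 above the mock mean for mitotic genes and -0.019 for replication genes. No mitotic gene passed limma's test (adjusted p from 0.688), and the difference between the lists was not tested. In bulk RNA, fewer cells in a phase and less RNA per cell cannot be told apart.

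**Figure D5:**
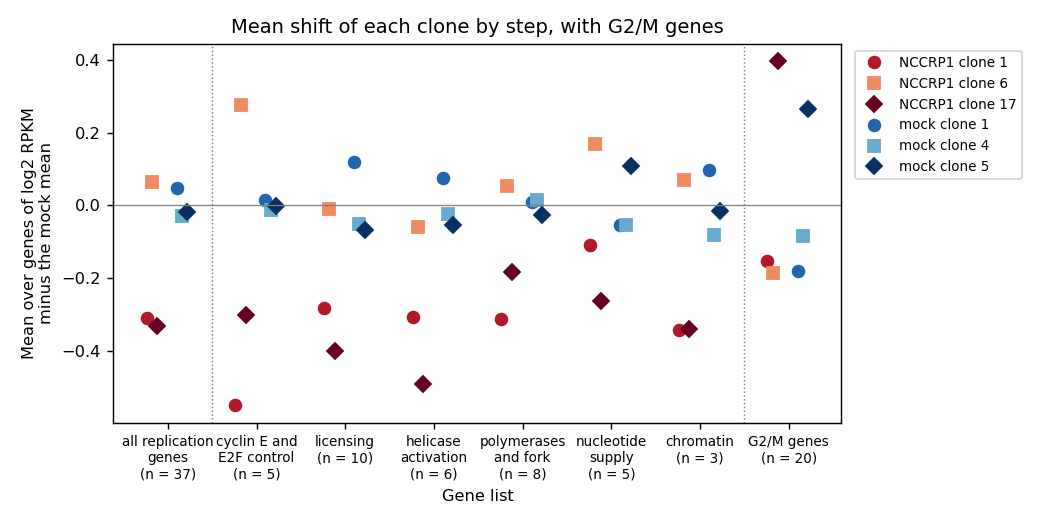
Mean over the genes of each list of log2 RPKM minus the mock mean, by clone (symbols, NCCRP1 clones left and mock clones right), for all 37 replication genes, for each step and for 20 G2/M genes. NCCRP1 clones 1 and 17 lie below the mock clones in each replication step. Clone 6 lies among or above them except in helicase activation, where it is at -0.06, and clone 17 is the highest of all for G2/M genes.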

How the data were processed

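Total RNA from 6 KYSE150 clones, 3 with NCCRP1 and 3 mock, was sequenced after DNase treatment and removal of ribosomal RNA, per the labels' protocols. The authors deposited 1 value per Entrez ID and library, headed RPKM, and the values are log2 RPKM by their range and sum, with no value below 0. The submitters' processing notes name hg19 and bedtools 2.25.0 without a role, and the aligner is not given in the sources used here. Symbols came from RefSeq. PRIM2 was not analysed here.

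NCCRP1 clones were compared with mock clones by limma 3.58.1 in R 4.3.3 (trended, robust, two-sided, group as the sole term, no pseudocount) over 12737 genes above 0 in at least 3 libraries. Benjamini-Hochberg adjustment ran over all of them, with a threshold of 0.05. The test was also run on simulated data. Single genes had an exact permutation test. Reads per library, 12290000 to 18070000, were estimated from whole-read steps of microRNA values. Of low microRNA values 23.4% to 33.1% lay within 0.005 of a whole step, against 1% by chance, and whole multiples of these depths are not excluded. At the lowest member value the counting error is 16.7% per kilobase.

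Neighbour shifts used 8860 expressed genes in RefSeq order. GC content came from GENCODE 29 transcripts, and the loess trend (span 0.5) was an alternative chosen after seeing the data. The members and lists were chosen with earlier results of these data known. In each step, every clone's value was given for the 2 genes with the lowest p, the gene with the highest mean, genes whose groups did not overlap and genes that another result turns on. Of the other pathway genes the 6 with the lowest p were named.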

Additional observations from a re-analysis of the deposited data

How the results depend on the processing

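None of the 37 genes passed limma's test under any setting run. The count over all genes, 13, was 3 with no filter, 7 for genes above 0 in every library, 4 with log2(RPKM + 1), 1 with log2(RPKM + 0.1), 2 with a listed 0 as missing, 8 with the neighbour shift subtracted, 4 with the GC trend removed, 5 without robust fitting and 2 with run as a second term. Leaving out 1 clone gave 1 (without NCCRP1 clone 17) to 28 (without NCCRP1 clone 1). The median of the 37 genes stayed between -0.297 and -0.102 when 1 clone was left out. The median of the cyclin E and E2F step ran from -0.451 to 0.095, above 0 without NCCRP1 clone 1, and that of nucleotide supply from -0.188 to 0.058, above 0 without mock clone 5. With 1 clone left out the other step medians ran from -0.271 to -0.148 for licensing, -0.38 to -0.147 for helicase activation, -0.244 to -0.035 for polymerases and fork and -0.488 to -0.182 for chromatin. The lowest in size came without NCCRP1 clone 17 for helicase activation and without NCCRP1 clone 1 for polymerases and chromatin. The chromatin median was -0.091 with the neighbour shift subtracted. Genes above the mock range in NCCRP1 clone 1, 1 as deposited, numbered 3 with the neighbour shift subtracted and 1 to 2 with 1 mock clone left out. In NCCRP1 clone 17 the count, 0 as deposited, was 1 with quantile normalization, 2 with the neighbour shift subtracted and 1 with any mock clone left out. The cause of these changes was not tested. No paired analysis was possible because the labels pair no NCCRP1 clone with a mock clone, and clone 1 of each group is a separate clone. With 3 clones a group and 1 library each, small differences cannot be told from the spread between clones.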
